A study of Saccharomyces cerevisiae with 6 samples.

Results

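The genes described here encode 8 yeast proteins that remove superoxide, peroxide or methylglyoxal: SOD1, SOD2 and CCS1, CTT1 and CCP1, and GLO1, GLO2 and GLO4. They were chosen by name, and each was read by 1 probe set that the platform annotation assigns to that gene alone, so all 8 of the 8 were measured among 5449 Saccharomyces cerevisiae genes. Transcript levels came from Affymetrix arrays of total RNA. The yeast, strain VTT C-10883 of Saccharomyces cerevisiae, grew anaerobically in chemostats, vessels fed steadily with fresh medium. The first group held 3 biological replicates with no inhibitors, and the second held 3 biological replicates given hydroxymethylfurfural (HMF) and furfural, aldehydes that form when plant sugars break down. Strain and anaerobic growth were shared by all 6 cultures. The change to HMF and furfural was made as a step, and the sources used here name neither its dose nor its duration nor the growth rate set by the feed. They also leave unsaid whether the cultures without inhibitors were sampled from the same vessels before the step.

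Superoxide dismutases turn superoxide into hydrogen peroxide and oxygen. Sod1 is the copper and zinc enzyme of the cytosol and the mitochondrial intermembrane space, Sod2 is the manganese enzyme of the mitochondrial matrix, and Ccs1 is the chaperone that loads copper into Sod1. Hydrogen peroxide is then removed by Ctt1, the cytosolic catalase, and in the mitochondrial intermembrane space by Ccp1, a peroxidase that takes electrons from cytochrome c. Both are heme proteins, and heme synthesis needs oxygen. Methylglyoxal, a toxic by-product of glycolysis, is bound to glutathione and turned by glyoxalase I (Glo1) into S-D-lactoylglutathione, which glyoxalase II cleaves to D-lactate in the cytosol (Glo2) or the mitochondria (Glo4).

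All 8 genes lay above background on all 6 arrays, background being the 95th percentile of fission yeast probe sets on the same array, a log2 signal of 2.22 on each. Signals are log2 values relative to all RNA on an array, so that less RNA of a gene in each cell and fewer cells with it cannot be told apart. The SD of a gene within a group was typically small (median over all genes 0.05, log2). DAN1, TIR1, ANB1, AAC3, COX5B and SUT1, 6 genes known for anaerobic expression, had signals from 6.82 to 12.85. With no aerobic culture to set them against, these signals cannot check that growth was anaerobic. At an adjusted p under 0.05 in limma, 4 of the 6 genes rose with inhibitors and 1 fell, where 19.9% of all genes rose and 22.3% fell. ANB1, a hypoxic translation factor gene with a near-identical copy that its probe set may also read, rose by 0.67. The hypoxic ADP/ATP carrier gene AAC3 rose by 0.64, the sterol uptake regulator gene SUT1 by 0.44 and the mannoprotein gene DAN1 by 0.34, while COX5B fell by 0.22. The part of this shift in the changes of the 8 genes was not tested.

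With inhibitors, 4 of the 8 genes fell and 0 rose at an adjusted p under 0.05 in limma, with Benjamini-Hochberg adjustment over all genes. SOD1, SOD2, CTT1 and CCP1 fell, and CCS1, GLO1, GLO2 and GLO4 were not called. At an unadjusted p under 0.05 in limma, 1 gene (CCS1) was higher and the same 4 were lower. Over all genes 22.3% were called lower and 19.9% higher, 42.2% in all. For 6 of the 8 genes no array of one group reached into the range of the other, which held for 55.4% of all genes. The median log2 fold change was -0.13 for the 8 genes and -0.01 for all genes.

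**Figure D1:**
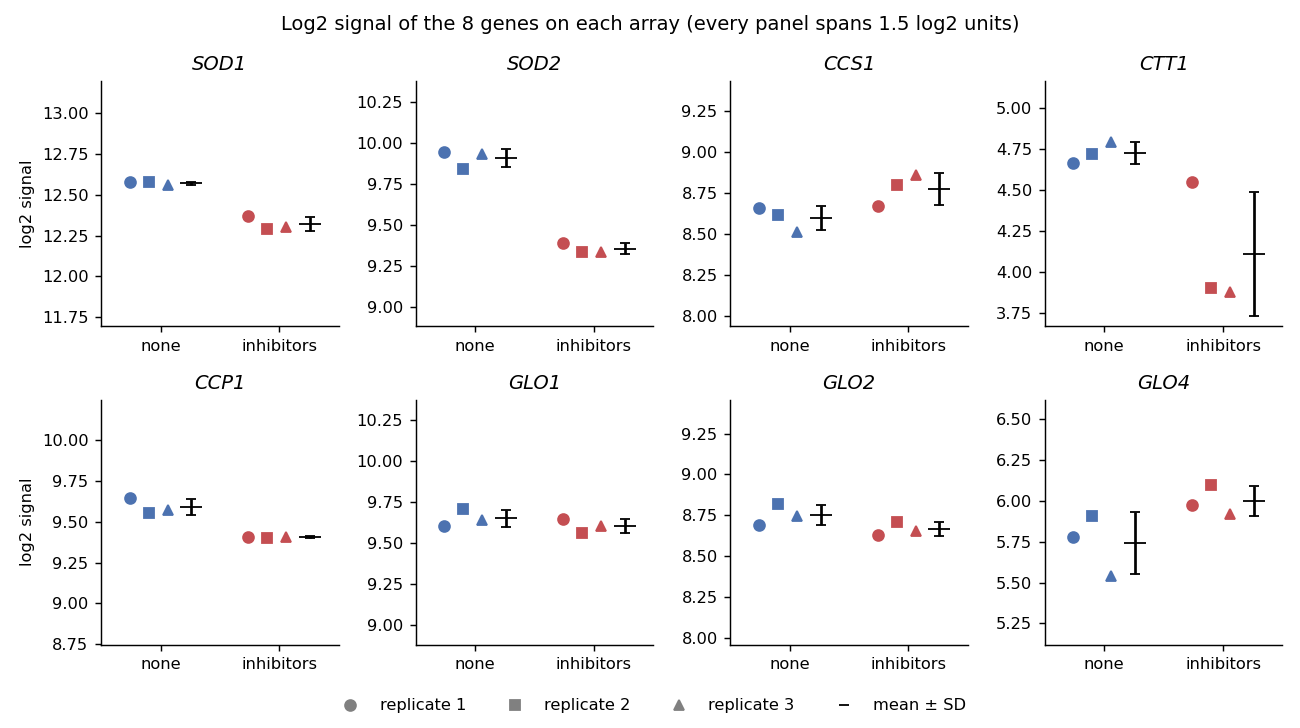
Log2 signal of each of the 8 genes on each array without (blue) and with (red) inhibitors, with replicates 1 to 3 as circles, squares and triangles and the mean ± SD (n = 3) in black. SOD1, SOD2 and CCP1 form separate, tight groups, whereas CTT1 with inhibitors runs from 3.88 to 4.55.

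The superoxide dismutase genes both fell, by different amounts. SOD2 had log2 signals of 9.94, 9.84 and 9.93 without inhibitors and of 9.39, 9.33 and 9.34 with them. Every array with inhibitors lay below every array without, with a space of 0.45 between the groups, far more than the SD within either (0.05 and 0.03). The log2 fold change was -0.55 (SE 0.04, n = 3 and 3, adjusted p = 0.000578 in limma), or 0.681 times the level without inhibitors. In size this change exceeded that of about 95.2% of all genes, and it is among the 5.91% of genes called at 0.5 or more on the log2 scale.

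SOD1 had log2 signals of 12.58, 12.58 and 12.56 without inhibitors and of 12.37, 12.29 and 12.30 with them. The groups again did not overlap, and the arrays without inhibitors differed among themselves by less than those with them. The log2 fold change was -0.25 (SE 0.03, adjusted p = 0.00221 in limma), or 0.842 times.

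CCS1, the copper chaperone gene of SOD1, had log2 signals of 8.66, 8.61 and 8.51 without inhibitors and of 8.67, 8.80 and 8.86 with them. The groups were parted by 0.01, less than the spread within either, and inhibitor replicate 1 was the array nearest to the cultures without inhibitors. The log2 fold change of 0.18 (SE 0.06, 95% interval 0.02 to 0.34) missed the threshold (adjusted p = 0.0694 in limma). Without inhibitor replicate 1 it was 0.24, with an adjusted p of 0.0291 in limma.

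The heme enzymes of peroxide removal fell as well, CCP1 by a small and even amount and CTT1 by a larger and uneven one. CCP1 had log2 signals of 9.64, 9.55 and 9.57 without inhibitors and of 9.41, 9.40 and 9.41 with them. The arrays with inhibitors were almost identical (SD 0.01) and all below the lowest without. The log2 fold change was -0.18 (SE 0.03, adjusted p = 0.00631 in limma), or 0.88 times.

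CTT1 had log2 signals of 4.66, 4.72 and 4.79 without inhibitors and of 4.55, 3.90 and 3.88 with them. Inhibitor replicate 1 stood 0.12 below the lowest culture without inhibitors, and the other 2 stood much further down. The log2 fold change was -0.62 (SE 0.19, 95% interval -1.10 to -0.14), just past the threshold (adjusted p = 0.0498 in limma). The SD with inhibitors, 0.38, exceeded that of about 99.8% of all genes. Without inhibitor replicate 1 the log2 fold change was -0.84 (SE 0.05, adjusted p = 0.00174 in limma).

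Without any other single array CTT1 was not called. Its log2 fold change was then -0.65, -0.62 and -0.58 without replicates 1, 2 and 3 of the cultures lacking inhibitors (adjusted p = 0.105, 0.117 and 0.13 in limma), and -0.51 and -0.50 without inhibitor replicates 2 and 3 (adjusted p = 0.133 and 0.131 in limma). The direction was the same each time. Its signals, 3.88 to 4.79, were low, though above the background of 2.22 that nearly all genes passed. Whether the processing of the arrays altered differences at this level was not tested.

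Inhibitor replicate 1 stood apart for other genes too. Among 123 genes with an SD of 0.2 or more across the inhibitor arrays, replicate 1 was the one farthest from the median of the 3 in 77 (62.6%), replicate 3 in 35 and replicate 2 in 11. It was also nearest to the mean without inhibitors in 75 of the 123. The part of this array in the spread of CTT1 was not tested beyond the values without it given above.

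**Figure D2:**
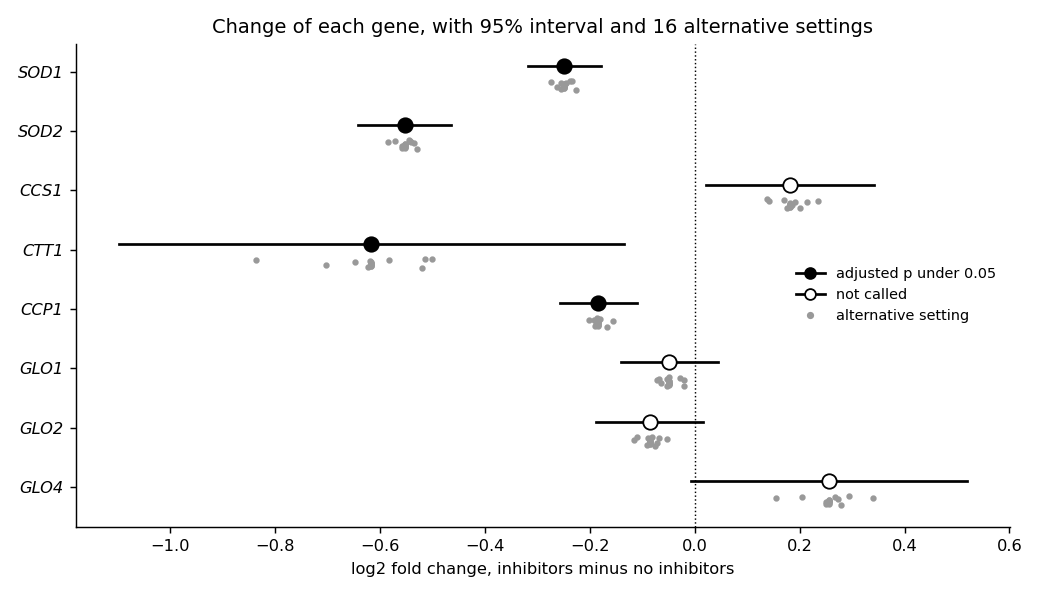
Log2 fold change (inhibitors minus no inhibitors) of each gene with its 95% interval from limma, filled where the adjusted p was under 0.05, and below it as grey points the value under each of 16 alternative settings. SOD1, SOD2 and CCP1 keep to narrow ranges below 0, CTT1 spreads from -0.84 to -0.50, and GLO1 and GLO2 lie close to 0.

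None of the 3 glyoxalase genes was called in limma, and 0 of them passed at an unadjusted p under 0.05. GLO1 had log2 signals of 9.61, 9.71 and 9.64 without inhibitors and of 9.64, 9.56 and 9.61 with them, and the groups overlapped. Its log2 fold change of -0.05 had a 95% interval from -0.14 to 0.04 (adjusted p = 0.338 in limma).

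GLO2 had log2 signals of 8.69, 8.82 and 8.74 without inhibitors and of 8.63, 8.71 and 8.66 with them. These groups overlapped as well, and the log2 fold change of -0.09 had a 95% interval from -0.19 to 0.02 (adjusted p = 0.148 in limma). For both cytosolic genes the interval leaves out the log2 fold change of -0.25 estimated for SOD1. The interval of GLO2 still overlaps that of SOD1 (-0.32 to -0.18), and neither gene was tested against SOD1.

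GLO4, for the mitochondrial enzyme, had log2 signals of 5.78, 5.91 and 5.54 without inhibitors and of 5.97, 6.10 and 5.92 with them. The groups were parted by 0.01, against an SD of 0.19 without inhibitors. The log2 fold change of 0.26 (SE 0.10, 95% interval -0.01 to 0.52) was not called (adjusted p = 0.105 in limma). It was 0.15 without replicate 3 of the cultures lacking inhibitors, the lowest of the 6 arrays, and 0.15 to 0.34 over all single-array removals, none of which gave a call.

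Changes in the ratio of 2 genes of linked function were compared in 7 pairs by a two-sided exact permutation test over the arrays, which with 3 against 3 cannot give a p below 0.1. After adjustment over the 7 pairs the smallest value was 0.14, so no pair could pass the threshold. SOD2 fell further than SOD1: the log2 difference SOD2 minus SOD1 was -2.73 to -2.63 on the arrays without inhibitors and -2.98 to -2.96 with them, a shift of -0.30 (SE 0.04, exact p = 0.1, adjusted p = 0.14). The difference CCS1 minus SOD1 shifted by 0.43 (SE 0.09, exact p = 0.1, adjusted p = 0.14), with no overlap of the groups, so that the signal for the chaperone was higher relative to that for its client on each array with inhibitors.

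Among the glyoxalases, GLO4 minus GLO1 shifted by 0.30 (SE 0.12) and GLO4 minus GLO2 by 0.34 (SE 0.10), both without overlap (exact p = 0.1, adjusted p = 0.14 for each). GLO2 minus GLO1 shifted by -0.04 (SE 0.05, exact p = 0.6) with overlapping groups, and without inhibitor replicate 1 by 0.000383. CCP1 minus CTT1 shifted by 0.43 (SE 0.23, exact p = 0.2) with overlapping groups, and by 0.65 without inhibitor replicate 1. CTA1, for the peroxisomal catalase, had signals of 2.50 to 2.61 on all arrays, close to background, with a log2 fold change of -0.06. Its difference from CTT1 shifted by 0.56 (SE 0.22, exact p = 0.1). With CTA1 so near background, this shift mostly restates the fall of CTT1 and cannot show that the catalase genes responded differently.

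**Figure D3:**
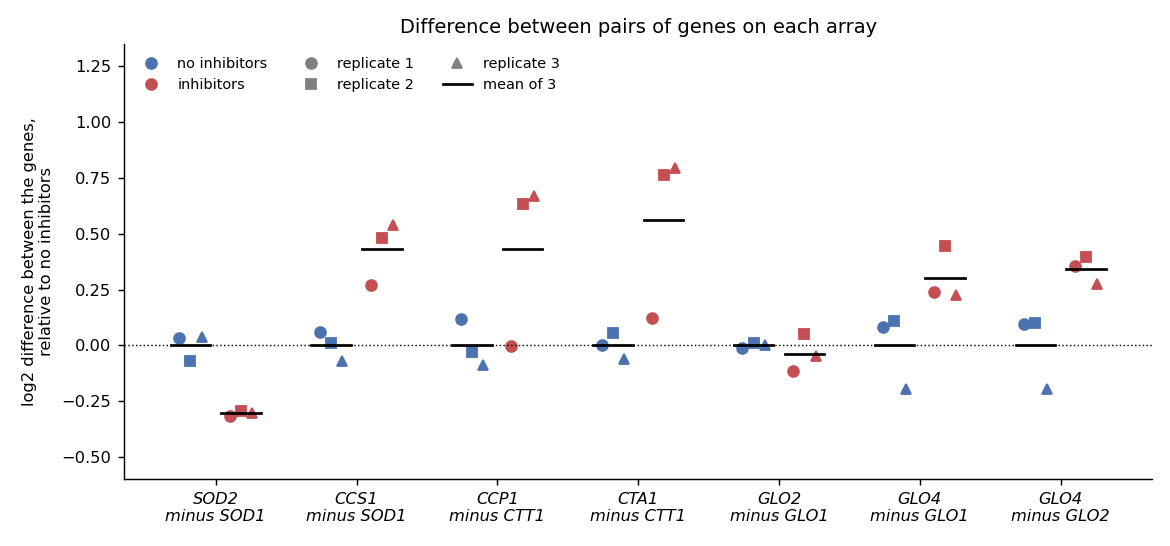
Difference in log2 signal between the genes of each pair on each array, relative to the mean of that pair without inhibitors, with blue for no inhibitors, red for inhibitors and a bar for the mean of 3. SOD2 minus SOD1 moves down by 0.30 on tightly grouped arrays, and the CTT1 pairs are spread by inhibitor replicate 1.

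Of 14 other genes of peroxide removal, 1 rose, 2 fell and 11 were not called, with a median log2 fold change of 0.01. Over all genes 42.2% were called, a share to be read beside this count and those of the lists that follow. The mitochondrial peroxiredoxin gene PRX1 went from 9.52 to 9.08 (log2 fold change -0.44, SE 0.02, adjusted p = 0.000391 in limma), and the mitochondrial thioredoxin gene TRX3 fell by 0.27 (adjusted p = 0.0169 in limma). The glutathione peroxidase gene GPX2 rose from 5.15 to 5.48 (log2 fold change 0.33, SE 0.04, adjusted p = 0.0021 in limma).

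Copper and manganese supply genes serve the dismutases, which need these metals. Of 18 measured, 3 rose and 5 fell, close to the share of 42.2% called over all genes, with a median of -0.12. On the manganese side, SMF1, a plasma membrane manganese transporter gene, went from 7.51 to 7.03 (log2 fold change -0.48, SE 0.05, adjusted p = 0.00169 in limma). MTM1, a mitochondrial carrier gene needed for active Sod2, went from 8.53 to 8.17 (log2 fold change -0.35, SE 0.03, adjusted p = 0.00164 in limma). The manganese transporter gene SMF2, named after its values were seen, rose by 0.12 (adjusted p = 0.0408 in limma). On the copper side, the metallothionein gene CUP1-1, whose probe set can also read other copies, rose from 12.27 to 12.73 (log2 fold change 0.45, SE 0.02, adjusted p = 0.000391 in limma). CUP2, the copper-sensing activator of CUP1, rose by 0.29 (adjusted p = 0.0244 in limma). Other called copper genes, named after their values were seen, went the other way. The copper transporter genes CTR1 and CTR2 had log2 fold changes of -0.20 and -0.21 (adjusted p = 0.00122 and 0.0191 in limma). The metallothionein gene CRS5 had one of -0.18 (adjusted p = 0.0149 in limma).

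Of 12 genes for other methylglyoxal reactions and glutathione, 2 rose and 5 fell, with a median of -0.02. DLD3, of the D-lactate dehydrogenase family, rose from 11.03 to 11.54 (log2 fold change 0.51, SE 0.05, adjusted p = 0.0016 in limma). The aldo-keto reductase genes YPR1, GRE3 and GCY1 fell by 0.33, 0.24 and 0.21. Named after their values were seen, DLD2, of the same family as DLD3, rose by 0.16 (adjusted p = 0.0103 in limma), the glutathione-independent glyoxalase gene HSP31 fell by 0.21 (adjusted p = 0.00731 in limma) and the glutathione reductase gene GLR1 by 0.12 (adjusted p = 0.0339 in limma).

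Heme and cytochrome c genes serve CTT1 and CCP1. Of 12 measured, 2 rose and 4 fell, with a median of -0.08. CYC7, the cytochrome c isoform gene favoured at low oxygen, went from 8.41 to 7.53 (log2 fold change -0.88, SE 0.07, adjusted p = 0.000902 in limma), a larger change than that of any of the 8 genes. CYC3, for the lyase that attaches heme to cytochrome c, fell by 0.29 (adjusted p = 0.0351 in limma). CYC2, which acts in the same step, rose by 0.19 and the protoporphyrinogen oxidase gene HEM14 by 0.28 (adjusted p = 0.0128 and 0.0265 in limma). Named after their values were seen, the heme synthesis genes HEM12 and HEM15 had log2 fold changes of -0.14 and -0.16 (adjusted p = 0.0151 and 0.00437 in limma).

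Iron-sulfur dehydratases, which superoxide can inactivate, gave 2 falls and 0 rises among 4, at an unadjusted p under 0.05 likewise 0 rises in limma. ILV3 fell by 0.22 and ACO1 by 0.20 (adjusted p = 0.00646 and 0.0124 in limma). Regulators known to act on these genes gave 1 rise and 2 falls among 12, with a median of -0.03. MSN4, a general stress activator that drives CTT1, went from 7.06 to 6.51 (log2 fold change -0.55, SE 0.07, adjusted p = 0.00281 in limma), whereas its paralogue MSN2 stood at -0.03 on the same scale (adjusted p = 0.677 in limma). The kinase gene RIM15 fell by 0.26 and the oxidative stress regulator gene SKN7 rose by 0.19 (adjusted p = 0.00893 and 0.0369 in limma). YAP1, for the peroxide-sensing activator, had a log2 fold change of -0.02 and HAP1, for the heme-responsive activator, of 0.08 (adjusted p = 0.696 and 0.115 in limma).

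**Figure D4:**
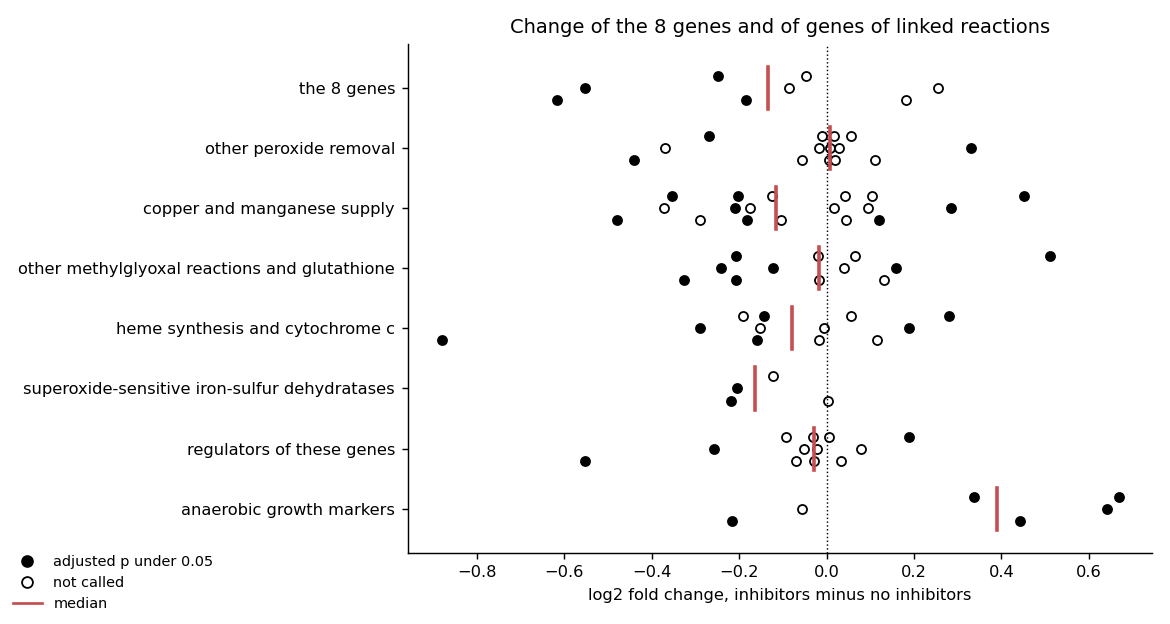
Log2 fold change (inhibitors minus no inhibitors) of the 8 genes and of each gene in the lists of linked reactions, filled where the adjusted p in limma was under 0.05, with the median of each list as a red bar. The medians lie between -0.16 and 0.01 except for the anaerobic markers at 0.39, and CYC7 lies farthest to the left at -0.88.

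SOD2 and CTT1, the 2 called genes with a change of at least 0.5 on the log2 scale, were set against 772 genes whose SD over the 6 arrays was at least 0.2. As a description over 6 arrays in 2 groups, in which any gene that falls with inhibitors scores high, the genes most like SOD2 were YER053C-A, ARG7 (an arginine synthesis gene) and TPS1 (a trehalose synthesis gene), with Pearson's r of 0.999, 0.998 and 0.997 in that order. They fell by 1.14, 0.53 and 0.43. Those most like CTT1 were the mitochondrial aldehyde dehydrogenase gene ALD4 (r = 0.995), the basic amino acid permease gene ALP1 (r = 0.987) and PRM1, a gene of cell fusion in mating (r = 0.983). ALD4 had signals of 9.99, 9.67 and 9.61 with inhibitors against 10.08 to 10.11 without. Among the inhibitor arrays it stood highest in replicate 1, like CTT1, a likeness that its choice by correlation over the same arrays favours.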

How the data were processed

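Per the labels' protocols, biotin was added to total RNA with an Affymetrix 3'IVT kit. The authors deposited log2 signals. The submitters' processing notes name GCRMA and limma without version or role. GCRMA gathers low signals at a floor (lowest value 2.21), where changes can be understated. Whether it altered the size of changes at low signals above the floor, in either direction, was not tested. No further normalization was applied. Of 10762 probe sets, 5498 were assigned to 1 S. cerevisiae gene and 1746 to 1 fission yeast gene, by matching gene IDs to the RefSeq table of assembly R64, used for names and gene order alone. Per gene the probe set with the highest mean was used, which left 5449 genes.

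Groups were compared in limma 3.58.1 (R 4.3.3) with group as the single factor, moderated variances, two-sided tests and Benjamini-Hochberg adjustment over all 5449 genes at a threshold of 0.05. The method was tested on simulated data. The number of arrays limits the precision, and p-values measure the spread between cultures that the labels call biological replicates. The genes, lists and tests were chosen with earlier results of these data known. Named were the 8 genes, up to 4 called genes of each list by size of change, 5 regulators, and the 3 genes most like each called gene with a change of 0.5 or more. Genes said to be named after their values were seen stand outside this rule. CUP1-2, also listed, had no row of its own in the annotation. Promoter and protein sequences were not used here, and a planned count of promoter motifs was not made. Alternatives covered normalization, a background filter, moderation of the variance, weights for arrays, a block for the replicate number, probe sets, the threshold and leaving out each array. Figures were drawn with matplotlib 3.10.9.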

Additional observations from a re-analysis of the deposited data

How the results depend on the processing

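SOD1, SOD2 and CCP1 stayed lower and called, and GLO1 and GLO2 stayed uncalled and below 0, under all 16 alternatives. None of the 8 genes changed sign under any of the 16. CTT1 lost its call under 10 of them: quantile normalization (log2 fold change -0.52, adjusted p = 0.0509), no variance moderation, the replicate block, the removal of cross-hybridizing probe sets and the stricter threshold of 0.01 (-0.62 in each, with adjusted p = 0.111, 0.0957, 0.0504 and 0.0498), and 5 of the 6 single-array removals (range -0.84 to -0.50). CCS1 was called higher with trend and robust estimation (0.18, adjusted p = 0.0355), with array weights (0.19, adjusted p = 0.0385) and without inhibitor replicate 1 (range over single-array removals 0.14 to 0.24), and GLO4 with the replicate block (0.26, adjusted p = 0.0463). So 1 of the 8 genes was called higher under each of these 4 settings, and 0 to 1 when single arrays were left out. The shift of GLO2 minus GLO1 ranged from -0.0818 to 0.000383 over single-array removals. At an adjusted p under 0.01, 608 genes were higher and 582 lower, as a stricter threshold must lower counts. Over all genes, the deviations of same-numbered replicates from their group means were weakly and negatively correlated (-0.22, -0.25 and -0.20). Differently numbered replicates were not compared, so these values cannot settle whether the numbers pair the cultures. Other causes of these differences were not tested. Signals near the floor, such as those of CTA1, limit what a change there can show.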

Other observations

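In the RefSeq gene order, 16 protein-coding neighbours of the 8 genes were measured and 5 of them were called in limma, against 42.2% of all genes. Of the 8 neighbours of the genes that fell, 3 fell as well, against 22.3% of all genes (TDA3 beside SOD2, NNF2 beside CTT1 and GPT2 beside CCP1, by 0.21, 0.23 and 0.29) and 1, PAM17 beside CCP1, rose by 0.35. These neighbours were named after their values were seen. CCS1 lies next to the stress regulator gene MSN2, which was not called, and SUB1 on its other side rose by 0.16 (adjusted p = 0.00286 in limma).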
